A study of Mus musculus with 2 samples.

Results

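The serotonin receptor genes examined here were the 9 genes Htr1a, Htr1b, Htr1d, Htr1f, Htr2a, Htr2c, Htr3a, Htr4 and Htr7, taken by symbol from the 32285 features of a single-cell RNA data set of the mouse locus coeruleus, the main noradrenergic nucleus of the brain. All 9 were found, and 5 further genes of the family (Htr2b, Htr3b, Htr5a, Htr5b and Htr6) are given as counts. Tissue donors were C57BL/6N animals with the wild type genotype, male and female, 3 to 4 weeks old, in 1 group with 2 libraries, LC1 (batch 1) and LC2 (batch 2). No allele, transgene or treatment is named, and the slices were dissected by hand, so neurons around the nucleus are in the samples. How many mice went into a library, and whether they were pooled, is not given in the labels, so library and batch cannot be told apart. The p-values here rest on these 2 libraries and on a spread shared across genes. They do not measure each gene's own spread between the libraries, nor a spread between mice.

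Serotonin reaches the locus coeruleus from the raphe nuclei and acts there through G protein-coupled receptors and an ion channel. Htr1 receptors couple to Gi/o proteins and reduce cyclic AMP and excitability, Htr2 receptors couple to Gq and phospholipase C, Htr4 and Htr7 couple to Gs and raise cyclic AMP, and Htr3a encodes a subunit of a cation channel opened by serotonin. The dissection borders the mesencephalic trigeminal nucleus, whose large sensory neurons carry signals from the jaw muscles and the teeth.

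Library 1 held 304 barcodes and 5600693 unique molecular identifiers (UMIs, counted molecules), and library 2 held 2796 barcodes and 6895380 UMIs. The median depth was 11010 and 1517 UMIs a barcode, and no barcode occurred in both. The series text speaks of 2578 cells, against 3100 barcodes in the matrices and 2974 after the filters used here. Cells were classed by clusters of marker genes, none of which is a serotonin receptor gene, and 200 (68.0%) and 1234 (46.0%) of the kept cells were neurons. Noradrenergic-like cells (12 and 77 in libraries 1 and 2) carried 8 of 8 markers of that list at 10 CPM or more, and mesencephalic trigeminal-like cells (11 and 38) carried 6 of 8. CPM is the share of a class's UMIs in a library that belong to a gene, on the usual scale of counts per 1000000. Excitatory-like neurons (28 and 173) carried 4 of 6 markers, inhibitory-like neurons (34 and 200) 6 of 6 and cerebellar granule-like neurons (35 and 46) 7 of 7. A further 80 and 700 neurons stayed unnamed, in 5 clusters with 116 to 262 CPM of Slc17a6, the vesicular glutamate transporter. Of these, a cluster of 1 and 33 cells had 317 CPM of Gad2, a marker of inhibitory neurons, beside 145 CPM of Slc17a6. The rest had 11.2 to 74.4 CPM of Gad2. No class was serotonergic: the 4 markers of that list summed to at most 20.6 CPM in any class. The classes differed in depth, from a median of 83596.5 and 7494 UMIs in noradrenergic-like cells to 5831 and 991.5 in granule-like cells.

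Htr2c gave 2140 UMIs in the kept cells of both libraries, 97.6% of them in neurons, and the other members gave between 6 and 207. Htr2c lies on the plus strand of chromosome X (GRCm38, chrX:146962513-147197277) with 8 exon blocks. Its receptor couples to Gq, and its transcript is edited by adenosine deaminases. Htr2c stood at 378 CPM in library 1 and 574 CPM in library 2 in excitatory-like neurons (mean 476 ± 139, SD, n = 2 libraries). It stood at 267 and 398 CPM in inhibitory-like and at 310 and 292 CPM in unnamed neurons, and the ranges of neighbouring classes in this order overlapped. Granule-like neurons had 37.7 and 126 CPM and noradrenergic-like neurons 95.1 and 42.1 CPM, below all 3 of those classes in each library. Trigeminal-like neurons had the lowest mean of all 11 classes, 4.12 and 6.63 CPM from 3 and 4 UMIs. Oligodendrocyte-like cells, which serve as the background from free RNA, had 7.35 and 15.7 CPM from 3 and 19 UMIs. The trigeminal-like values were the lower ones in each library, but the 95% Poisson intervals of these classes overlapped in each. The trigeminal-like level was thus not told apart from that background. These classes also differed in depth, and the background at the depth of trigeminal-like cells was not tested.

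**Figure D1:**
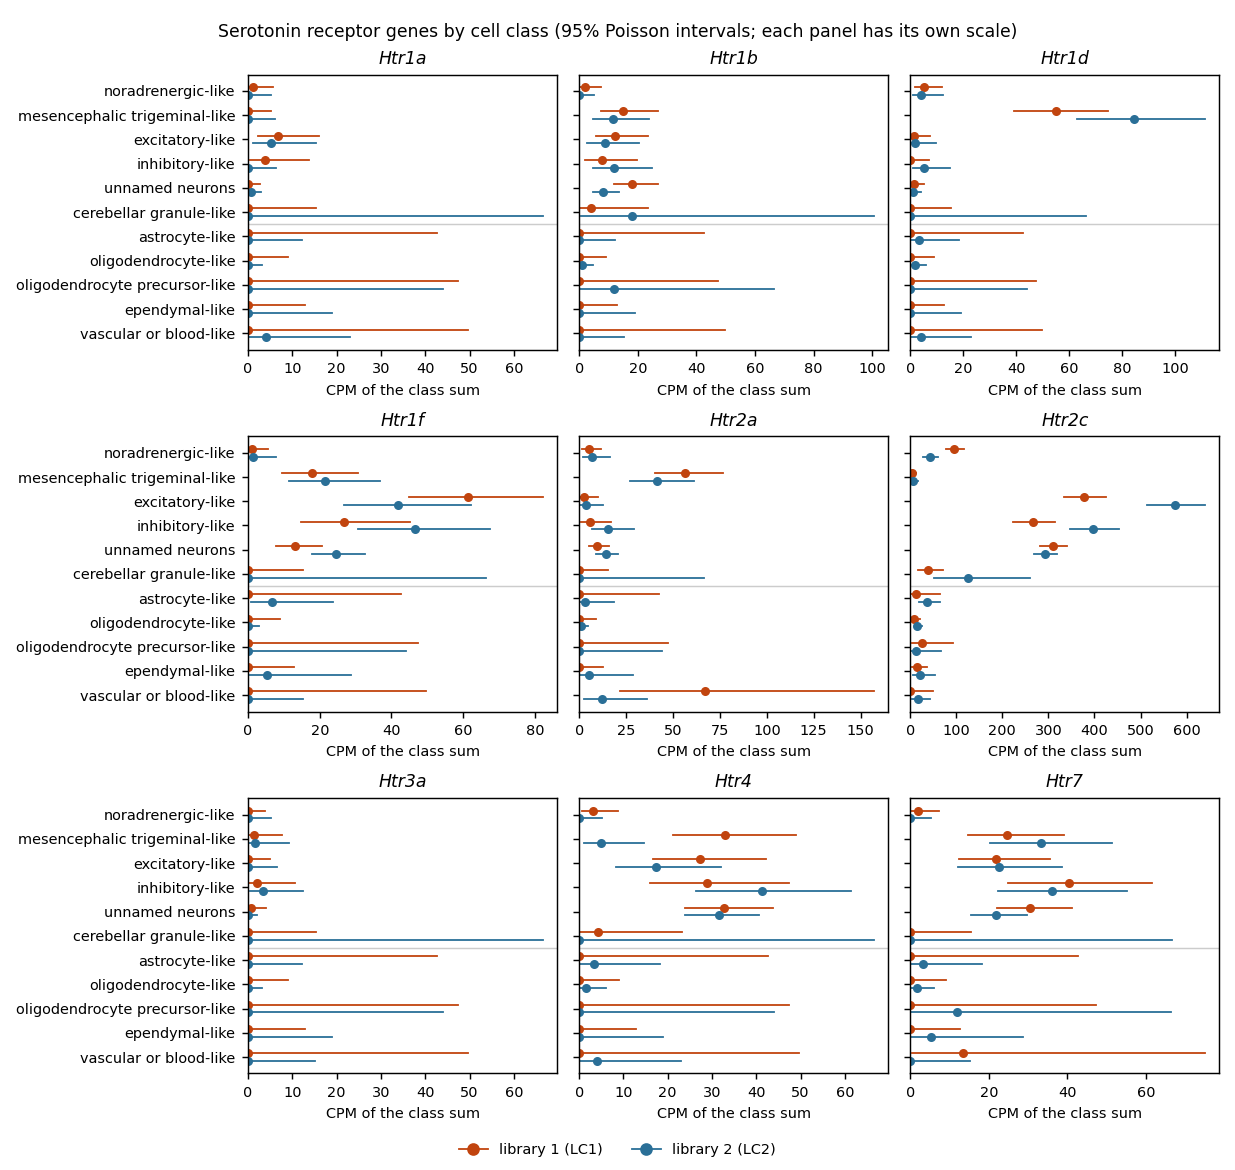
CPM of each of the 9 receptor genes in 11 cell classes, with a point per library and its 95% Poisson interval, which covers counting error only; each panel has its own horizontal scale, and the grey line parts neurons from other cells. Htr1d is high in the trigeminal-like class alone (55.0 and 84.6 CPM), and Htr2c is high in excitatory-like, inhibitory-like and unnamed neurons.

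Among the Gi/o-coupled members, Htr1d (chr4:136423524-136444398, plus strand, 4 exon blocks) had its highest level in trigeminal-like neurons. It stood there at 55.0 CPM in library 1 and 84.6 CPM in library 2, from 40 and 51 UMIs. The next class, noradrenergic-like neurons, had 5.06 and 4.21 CPM, and no range of another class reached the trigeminal-like one. Htr1f (chr16:64924729-65105854, minus strand) had 61.4 and 41.7 CPM in excitatory-like and 26.8 and 46.5 CPM in inhibitory-like neurons, ranges that overlapped. It had 17.9 and 21.6 CPM in trigeminal-like and 1.01 and 1.40 CPM in noradrenergic-like neurons, the latter from 1 UMI in each library. Htr1b (chr9:81628291-81633828, minus strand), found on axon terminals of many neurons, had mean levels between 9.86 and 13.4 CPM in trigeminal-like, unnamed, granule-like, excitatory-like and inhibitory-like neurons, with no order beyond the spread. Its counts share a position with D430036J16Rik on the opposite strand. Htr1a (chr13:105443639-105448122, plus strand), an autoreceptor of serotonin neurons and a receptor on many of their targets, gave 13 UMIs in all. Its highest level was 6.82 and 5.22 CPM in excitatory-like neurons.

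Htr2a (chr14:74640840-74709494, plus strand, 3 exon blocks), the Gq-coupled receptor on which many hallucinogens act, stood at 56.3 and 41.5 CPM in trigeminal-like neurons from 41 and 25 UMIs. A single cell of library 1 held 17 of those UMIs, and without the richest cell of each library the levels were 36.9 and 35.7 CPM. Vascular or blood-like cells had 67.2 CPM in library 1 and 12.4 CPM in library 2, from 5 UMIs in 2 cells and 3 UMIs in 3 cells, all of which carried endothelial markers. Htr2a had 9.45 and 14.1 CPM in unnamed, 5.75 and 15.5 CPM in inhibitory-like, 5.06 and 7.02 CPM in noradrenergic-like and 2.73 and 3.48 CPM in excitatory-like neurons.

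The Gs-coupled members Htr7 (chr19:35958734-36057507, minus strand) and Htr4 (chr18:62324204-62496577, plus strand) were spread over more neuron classes. Htr7 had 40.3 and 36.1 CPM in inhibitory-like, 24.7 and 33.2 CPM in trigeminal-like, 30.5 and 21.7 CPM in unnamed and 21.8 and 22.6 CPM in excitatory-like neurons. Htr4 had 28.8 and 41.3 CPM in inhibitory-like, 32.7 and 31.5 CPM in unnamed and 27.3 and 17.4 CPM in excitatory-like neurons. In trigeminal-like neurons Htr4 differed between the libraries, with 33.0 CPM from 24 UMIs in library 1 and 4.97 CPM from 3 UMIs in library 2. Noradrenergic-like neurons held 3 UMIs of Htr4 and 2 of Htr7, all in library 1. Htr3a (chr9:48899213-48911099, minus strand) gave 6 UMIs in all, of which 3 were in inhibitory-like neurons, and its position overlaps Gm32335 on the opposite strand. It had 0 UMIs in noradrenergic-like neurons, which allows up to 3.04 and 4.21 CPM.

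The trigeminal-like neurons were compared with all other neurons over the UMI sums of the 2 libraries with edgeR's quasi-likelihood test, with the library as a block. Of the members, 2 were higher and 1 was lower. Htr1d was higher by 4.91 ± 0.39 (SE) on the log2 scale, from 55.0 and 84.6 CPM against 2.07 and 2.39 CPM (adjusted p = 8.69e-34). Htr2a was higher by 2.54 ± 0.35, from 56.3 and 41.5 CPM against 5.96 and 11.2 CPM (adjusted p = 7e-12). Htr2c fell by 5.68 ± 0.40 on the same scale, with 7 UMIs against 2081 (adjusted p = 1.39e-43). For all 3 both libraries alone had the same sign, with Htr2a at 3.06 and 1.81, though the calls come from these same 2 libraries. Of the 11640 genes tested, 16.7% were called higher and 18.4% lower, against 2 and 1 of the 7 members that passed the low-count filter. Htr1d passed that filter through the trigeminal-like class and could hardly have been called lower. Htr2c passed it through the other neurons and could hardly have been called higher. The counts of 2 and 1 thus cannot be weighed against those shares. The other 4 did not pass the test: Htr1b had a log2 difference of 0.55 ± 0.50, Htr7 0.48 ± 0.34, Htr1f -0.23 ± 0.37 and Htr4 -0.28 ± 0.37, the last with 0.58 and -2.11 in the libraries alone. Htr1a and Htr3a did not pass the filter, and without it neither was called (edgeR adjusted p = 0.573 and 0.89). The classes compared also differed in depth, with a trigeminal-like median of 60464 and 13062.5 UMIs a cell, and the part of depth in these differences was not tested.

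**Figure D2:**
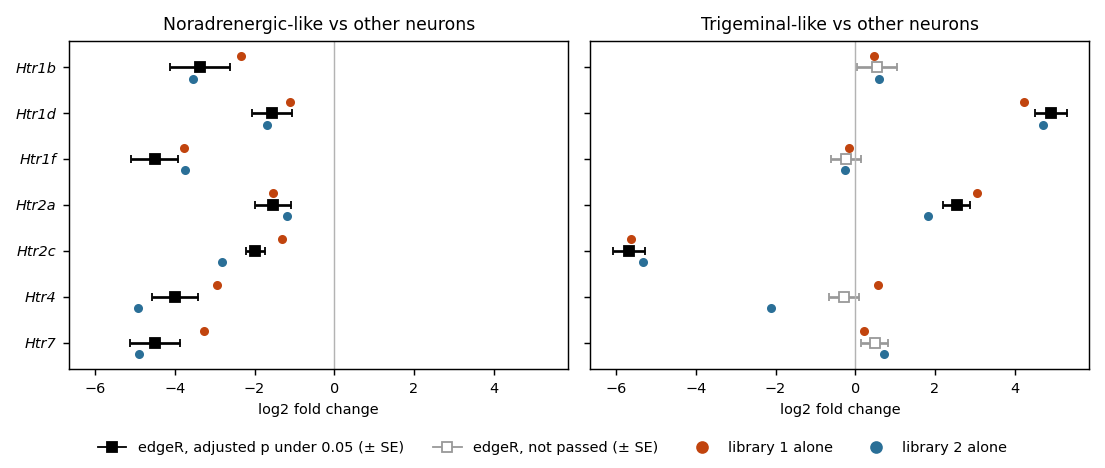
Log2 fold changes of the 7 tested members in noradrenergic-like (left) and trigeminal-like neurons (right) against all other neurons. Squares give the edgeR estimate ± SE, filled where the adjusted p was under 0.05, and circles give each library alone with a prior count of 2; every square on the left is filled and below 0 (for Htr1d not so once trigeminal-like and granule-like neurons are left out), while on the right only Htr1d and Htr2a (above 0) and Htr2c (below 0) are filled.

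The 200 bases before the first annotated start are shown for the 3 genes that set the trigeminal-like neurons apart, since the first pair were high and the last low in the same cells. They come from RefSeq's promoter table (GRCm38.p6), which matched 7 of the 9 members. Capitals mark E-boxes (CANNTG, on either strand) in Htr1d and the homeodomain core TAATTA in Htr2a.
Htr1d, chr4:136423324-136423523, plus strand: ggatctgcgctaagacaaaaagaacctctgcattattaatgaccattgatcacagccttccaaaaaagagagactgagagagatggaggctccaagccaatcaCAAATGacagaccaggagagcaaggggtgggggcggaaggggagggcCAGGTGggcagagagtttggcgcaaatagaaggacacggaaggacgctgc
Htr2a, chr14:74640640-74640839, plus strand: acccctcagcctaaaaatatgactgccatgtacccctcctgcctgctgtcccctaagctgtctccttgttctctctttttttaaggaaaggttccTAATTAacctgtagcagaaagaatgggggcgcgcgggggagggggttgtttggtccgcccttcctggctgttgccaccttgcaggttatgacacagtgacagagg
Htr2c, chrX:146962313-146962512, plus strand: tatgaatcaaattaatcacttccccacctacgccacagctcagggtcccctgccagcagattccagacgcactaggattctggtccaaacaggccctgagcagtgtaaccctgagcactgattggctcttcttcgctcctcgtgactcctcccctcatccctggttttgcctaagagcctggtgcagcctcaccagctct
The E-boxes of Htr1d began 97 and 50 bases before the start, and 58.2% of 32851 promoter windows of this length held at least 1. The TAATTA of Htr2a began 105 bases before the start and was found in 3.73% of windows. Htr2c held neither motif, nor a TATA box (TATAAA, 9.96% of windows), a cyclic AMP response element (TGACGTCA, 1.47%) or an octamer (ATGCAAAT, 1.38%). These matches describe letters and not bound sites. No motif was shared by the windows of Htr1d and Htr2a.

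The deep cells of library 1 showed both receptors at the level of single trigeminal-like cells. Htr1d had at least 1 UMI in 10 of the 11 cells, with 7 UMIs in the richest, and Htr2a in 9 of 11. Both occurred in 8 cells, and each of the 11 cells had at least one of them. In library 2, Htr1d occurred in 25 of 38 cells, Htr2a in 16, both in 14 and either in 27. Only 4 of the 12 noradrenergic-like cells of library 1 held Htr1d, with at most 2 UMIs in a cell, and 3 held Htr2a. At an equal depth of 10000 UMIs, Htr1d was seen in 4 of 11 trigeminal-like cells (36.4%, exact binomial 95% interval 10.9 to 69.2) in library 1 and in 15 of 26 (57.7%, 36.9 to 76.6) in library 2. Noradrenergic-like cells with it at that depth numbered 0 of 12 and 1 of 28, beside 0 of the 16 oligodendrocyte-like cells of library 1 that were deep enough. For Htr2a the numbers were 4 of 11 and 9 of 26 trigeminal-like cells, and 1 of 12 and 2 of 28 among the noradrenergic-like. Before thinning, all 13 UMIs of Htr1f in the trigeminal-like cells of library 1 came from 1 cell, and 10 of the 24 of Htr4 from another.

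**Figure D3:**
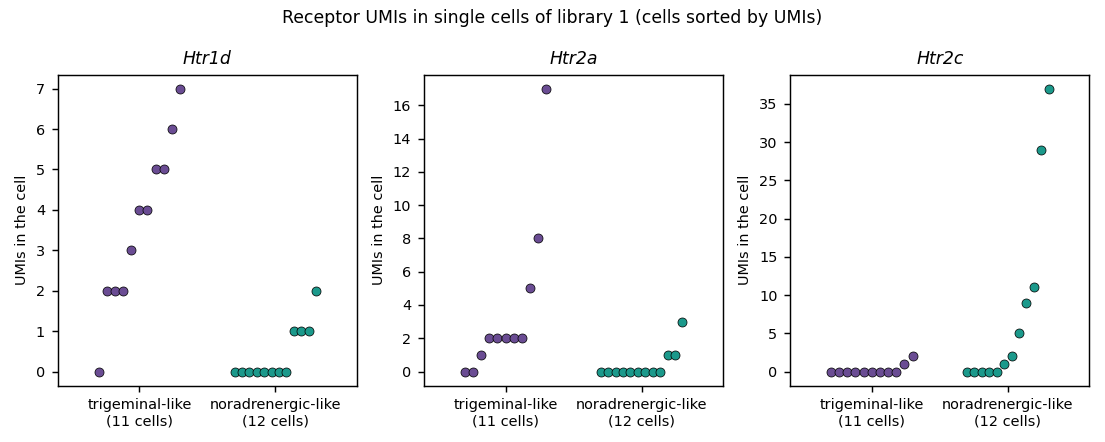
UMIs of Htr1d, Htr2a and Htr2c in each of the 11 trigeminal-like and 12 noradrenergic-like cells of library 1, sorted within a class by UMIs; each point is a cell, and the vertical scales differ. Htr1d is present in 10 and Htr2a in 9 of the 11 trigeminal-like cells, and 2 noradrenergic-like cells hold 66 of that class's 94 Htr2c UMIs.

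Genes that act with these receptors also differed in trigeminal-like neurons. S100a10, which encodes p11, an adaptor that binds Htr1b, Htr1d and Htr4 receptors and carries them to the cell surface, was higher by 2.60 ± 0.24 on the log2 scale (edgeR adjusted p = 1.3e-24), at 334 and 366 CPM against 64.0 and 51.0. It was the 1 partner gene of 7 that was higher, while 3 were lower: Arrb1 (-2.47), a beta-arrestin, Dlg4 (-1.22), a postsynaptic scaffold, and Tmem35a (-0.92), a chaperone of ion channel receptors. Tmem35a turned to the higher side with noradrenergic-like and granule-like neurons left out. Of 10 genes of Gi/o coupling 2 were higher, among them the Gi subunit Gnai1 (1.22), and 5 were lower, among them the potassium channel subunits Kcnj6 (-4.72) and Kcnj3 (-1.08) and the Go subunit Gnao1 (-1.25). Of 9 genes of Gq coupling 0 were higher and 4 were lower, among them the phospholipase Plcb4 (-1.45) and the kinase Prkcb (-1.31). Of 11 genes of Gs coupling 1 was higher, Gnal (1.56), a stimulatory G protein subunit, and 4 were lower, led by the adenylyl cyclases Adcy3 (-3.24) and Adcy5 (-1.63). Of 5 tested genes of serotonin handling 0 were higher and 4 were lower, among them the breakdown enzyme Maoa (-2.94), in a comparison whose other neurons include the noradrenergic-like ones. Of 3 editing genes 2 were lower, Adarb2 (-6.11), an inactive family member, and Adar (-0.64), an active deaminase. The median log2 difference was -0.66 for Gi/o, -0.52 for Gq and -0.37 for Gs genes, beside -0.05 for all genes tested.

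Noradrenergic-like neurons had lower levels of all 7 members that passed the low-count filter than all other neurons, although for Htr1d the direction turned with trigeminal-like and granule-like neurons left out. The 7 members tested were all called lower and 0 higher, while 16.3% of 11632 genes were called lower and 16.6% higher. Htr1b, Htr1f, Htr4 and Htr7 had at most 3 UMIs in the class and passed the filter through the other neurons. They could hardly have been called higher, so the count of 7 cannot be weighed against those shares. Htr2c fell by 1.98 ± 0.24 (SE) on the log2 scale by edgeR (adjusted p = 2.33e-06). Its level was 95.1 and 42.1 CPM, against 237 and 304 CPM among the remaining neurons. The libraries alone gave -1.31 and -2.82. Htr1f had 1 UMI in each library against 90 and 109, a pooled ratio of 0.0429 (exact 95% interval 0.00516 to 0.157, adjusted p = 7.08e-06). Htr7 had 2 UMIs against 191 (ratio 0.0447, 0.00537 to 0.164, adjusted p = 1.63e-05) and Htr4 3 against 200 (0.064, 0.0131 to 0.19, adjusted p = 2.5e-05), so both Gs-coupled members were near the limit of detection. Htr1b had 2 UMIs against 85, a ratio of 0.1 (0.012 to 0.374, adjusted p = 0.00189). Htr1d fell by 1.56 ± 0.50 (adjusted p = 0.0224) and Htr2a fell by 1.53 ± 0.45 (adjusted p = 0.0141), with 8 and 10 UMIs in the class. Htr1a had 1 UMI and Htr3a 0 in the class; the filter left both out, and without it neither was called (edgeR adjusted p = 0.816 and 0.771). With the trigeminal-like and granule-like neurons left out, 5 of 6 members were called lower, beside 1884 lower and 2066 higher of 11073 genes. Htr1b, Htr1f, Htr4 and Htr7 are among the 5, so this count cannot be weighed against all genes either. Htr2a had -0.72 (edgeR adjusted p = 0.297) and Htr1d did not pass the low-count filter. Htr1d then turned to the higher side, with 8 UMIs (5.06 and 4.21 CPM) against 9 (1.14 and 2.00 CPM), a pooled ratio of 2.94 whose exact 95% interval, 0.988 to 8.59, includes 1. DESeq2 called 4 of the 7 lower, without Htr1b (adjusted p = 0.14), Htr1d (0.483) and Htr2a (0.429), beside 634 lower and 544 higher of 11543 genes.

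Htr2c was uneven among noradrenergic-like cells, and among inhibitory-like and excitatory-like cells too. In library 1 its UMIs in the 12 noradrenergic-like cells were 37, 29, 11, 9, 5, 2 and 1, and 0 in 5 cells that held 37288 to 104288 UMIs each. The richest pair of cells thus held 66 of the 94 UMIs, and the median depth was 87050 UMIs in cells with Htr2c and 80143 in those without. In library 2 the class had 30 Htr2c UMIs in 16 of 77 cells, with at most 5 in a cell, and there the median depth was 11702 UMIs in cells with Htr2c and 6453 in those without. The part of depth in this unevenness was not tested. Without the richest cell of each library the noradrenergic-like class stood at 64.3 and 35.8 CPM. In library 1, 1 inhibitory-like cell held 52 of that class's 139 Htr2c UMIs, and 17 of its 34 cells held none. Of the 28 excitatory-like cells of library 1, 8 held none, and the richest held 42 of 277 UMIs. Thinned to 1000 UMIs, 1 of 12 noradrenergic-like cells of library 1 (8.33%) and 3 of 74 of library 2 (4.05%, 0.844 to 11.4) had Htr2c. The share was 10 of 28 (35.7%, 18.6 to 55.9) and 47 of 162 (29.0%, 22.2 to 36.7) in excitatory-like, 14.7% and 24.5% in inhibitory-like and 18.75% and 21.3% in unnamed neurons. In oligodendrocyte-like cells, the background, it was 0 of 38, which allows up to 7.89%, and 10 of 581 (1.72%, 0.828 to 3.14). The noradrenergic-like intervals reached the background ones at this depth, and the unthinned shares were 7 of 12 and 16 of 77. Over all UMIs of the class, the 95% Poisson intervals of Htr2c were 76.9 to 116 and 28.4 to 60.2 CPM. In oligodendrocyte-like cells they were 1.52 to 21.5 and 9.45 to 24.5 CPM, without overlap in either library. Such intervals cover counting error only, and the background at the depth of noradrenergic-like cells was not tested. Trigeminal-like cells had 0 of 11 and 1 of 38 at 1000 UMIs. Thinning left out 3 noradrenergic-like, 11 excitatory-like and 153 oligodendrocyte-like cells of library 2 and none of library 1 in these classes.

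**Figure D4:**
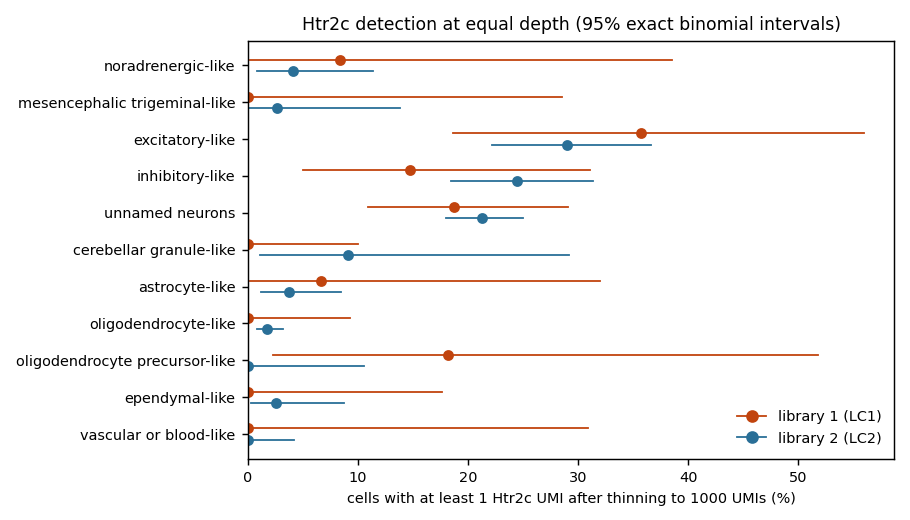
Percentage of cells with at least 1 Htr2c UMI after each cell was thinned to 1000 UMIs, by class and library, with 95% exact binomial intervals that cover counting error only. Excitatory-like neurons have 35.7% and 29.0%, and oligodendrocyte-like cells 0 and 1.72%.

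Signalling genes downstream of the receptors went both ways in noradrenergic-like neurons. Of 10 genes of Gi/o coupling 6 were higher, among them Rgs4 (log2 difference 2.31), which shortens G protein signals, Gnai2 (1.10) and Gnaz (0.58), and 1 was lower, the potassium channel subunit Kcnj3 (-0.63). Of 9 genes of Gq coupling 2 were higher, the kinase Prkca (1.92) and Gna11 (0.92), and 3 were lower, among them Plcb1 (-3.04), a phospholipase, and Itpr1 (-2.91), a calcium release channel. Of 11 genes of Gs coupling 2 were higher, among them Gnas (1.06), and 7 were lower, among them Adcy8 (-3.47), Adcy3 (-2.15) and the phosphodiesterase Pde4d (-0.87). Of 7 partner genes 2 were higher, Tmem35a (2.78) and S100a10 (1.04), and 0 were lower. Of the editing genes Adarb2 (-1.20) was lower. The breakdown enzymes Maoa (4.58) and Maob (2.44), which act on serotonin and noradrenaline, were higher, at 818 and 538 CPM against 28.6 and 25.4 for Maoa. All 5 tested genes of serotonin handling were higher, but Slc18a2 and Ddc among them are markers that defined the class. The median log2 difference was 0.49 for Gi/o, 0.19 for Gq and -0.76 for Gs genes, beside -0.01 for all genes tested. The noradrenergic-like and trigeminal-like comparisons share most of their other neurons, so their values stand side by side without a test between them.

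In granule-like neurons Htr2c was lower than in other neurons, and 4 of the 7 tested members had no UMI. Htr1a and Htr3a, which did not pass the low-count filter, had none either. Htr2c had 9 and 7 UMIs, 37.7 and 126 CPM against 216 and 263, and fell by 1.89 ± 0.49 on the log2 scale by edgeR (adjusted p = 0.0028). It was the only 1 of 7 tested members called in this comparison, where 4.76% of 11311 genes were lower and 3.57% higher. Htr1d, Htr1f, Htr2a and Htr7 had 0 UMIs and did not pass the test. At 3 counts over both libraries they would be 1.22-fold, 2.28-fold, 1.48-fold and 2.19-fold lower, figures without the counting error of the other neurons. The exact intervals of their pooled ratios reached up to 1.02, 0.545, 0.84 and 0.568, and that of Htr1d included 1. The call of Htr2c was lost with DESeq2 (adjusted p = 0.0673) and with classes set cell by cell from marker UMIs (adjusted p = 0.0632). Of the Gi/o genes 3 of 10 were higher and 1 lower, of the Gq genes 1 and 1 of 8, of the Gs genes 2 and 1 of 11, of the editing genes 0 and 1 of 3, of the partners 0 and 2 of 7 and of the handling genes 0 and 3 of 5. The other neurons here include the noradrenergic-like ones, and Slc18a2 and Ddc among the handling genes are markers of that class. The potassium channel subunits Kcnj3 (1.97) and Kcnj9 (1.68) and the cyclase Adcy1 (3.19) were higher, and S100a10 with 1 UMI was lower (ratio 0.0326, 0.000825 to 0.182).

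Inhibitory-like and excitatory-like neurons did not differ in a member past the threshold. Of the 4 members tested 0 were called by edgeR and 0 by DESeq2, and 2 had an unadjusted p under 0.05, while 1.98% of 7407 genes were higher and 2.27% lower in inhibitory-like neurons. Htr2c had -0.48 ± 0.18 (edgeR adjusted p = 0.191), with -0.50 and -0.53 in the libraries. Htr7 had 0.82 ± 0.37 (adjusted p = 0.325), Htr4 0.66 ± 0.40 and Htr1f -0.46 ± 0.34. Of the editing genes 1 of 3 was higher in inhibitory-like neurons, Adarb2 (2.08), of the Gq genes 1 of 7, Plcb4 (0.73), and of the Gs genes 1 of 11 was lower, Pde4d (-1.16). None of the 10 Gi/o, 7 partner or 2 tested handling genes passed the edgeR threshold.

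Neurons as a whole had more of the members than other cells. All 7 that passed the low-count filter were higher and 0 lower, where 26.9% of 13489 genes were higher and 24.7% lower. Htr1b, Htr1d, Htr1f and Htr4 had 0 UMIs outside neurons in library 1 and passed the filter through the neurons. They could hardly have been called lower, so the count of 7 cannot be weighed against those shares. Htr2c was higher by 3.85 ± 0.27 on the log2 scale by edgeR (adjusted p = 2.83e-11), at 207 and 261 CPM against 11.7 and 19.9. Htr4 (4.06 ± 0.59), Htr1d (3.26 ± 0.67) and Htr7 (3.21 ± 0.50) were also higher, each with 4 to 7 UMIs outside neurons. Htr1f had 201 UMIs against 3 (ratio 22.5, 7.58 to 110) and Htr1b 87 against 2 (14.6, 3.92 to 122). Htr2a had the smallest difference, 1.94 ± 0.49 (adjusted p = 0.00188), with 11 UMIs outside neurons, 8 of them in vascular or blood-like cells; DESeq2 did not call it (adjusted p = 0.134). This comparison depends on which clusters count as neurons. Under the higher pan-neuronal threshold of a first run (5000 against 2500 CPM), 79 cells of library 1 and 667 of library 2, most of the Slc17a6 clusters, counted as non-neuronal. Then 3 of 7 members were called higher, beside 2246 higher and 2608 lower of all 12938 genes tested. Htr2c had 0.20 (edgeR adjusted p = 0.457), Htr7 0.38, Htr1b 0.11 and Htr4 -0.01. Of the lists, 6 Gi/o genes of 10 were higher in neurons and 2 lower, 1 and 3 of 9 Gq genes, 7 and 1 of 11 Gs genes, 3 and 0 of 3 editing genes, 6 and 1 of 7 partners and 4 and 1 of 5 handling genes. Kcnj9 (4.22) and Tmem35a (3.98) were among the higher ones, and Itpr2 (-3.66) and Pde4b (-2.82) among the lower. Of the other family members Htr5a was higher in neurons (37 UMIs against 1, adjusted p = 0.0157), a call lost with DESeq2 (0.235) and without doublet removal (0.114). Htr5b, with 16 UMIs, had 13 of them in ependymal-like cells, at 27.6 and 25.8 CPM. Htr2b, Htr3b and Htr6 gave 5, 2 and 9 UMIs.

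Htr2c gave between 69.8% and 85.1% of the members' UMIs in excitatory-like, inhibitory-like, unnamed and noradrenergic-like neurons of both libraries, and 1.99% and 3.23% in trigeminal-like neurons. These are shares of counted UMIs and not of receptor protein. Without Htr2c the members summed to 203 and 199 CPM in trigeminal-like neurons, to between 101 and 160 CPM in excitatory-like, inhibitory-like and unnamed neurons and to 19.2 and 12.6 CPM in noradrenergic-like neurons. Trigeminal-like cells of library 1 had UMIs of a median of 4 members and noradrenergic-like cells of 2, at medians of 60464 and 83596.5 UMIs a cell.

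Over 11 classes in 2 libraries (22 points), the genes most like each of the 3 members with most UMIs were found by Pearson's r of log2(CPM + 10), centred within a library, among 10798 genes. Htr2c was most like Cntn5 (r = 0.948), an adhesion molecule of neurons, Il1rapl2 (0.939) and Tmem91 (0.933). Htr4 was most like Gpr26 (0.911), Ebf3 (0.884) and its fellow member Htr1f (0.878). Among the genes most like Htr1f were Htr4 (0.878) and Vwa5b2 (0.866). The points share libraries, depth and cells, so these values are descriptions.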

How the data were processed

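The authors deposited raw counts, in whole UMIs for each gene and barcode, 1 matrix per library. Per the submitters' processing notes, Cell Ranger 7.0, Seurat, mm10 and GRCm38 were used; per the file headers the matrices came from Cell Ranger 6.1.2. Whether introns were counted is not given in the sources used here. Per the labels' protocols, both papain-dissociated, methanol-fixed cells and 7-AAD-sorted nuclei were prepared, the same text standing for both libraries, so a cell here may be a nucleus. The smallest barcodes held 4208 and 500 UMIs. The receptor genes and lists were chosen with earlier results of these data known.

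Barcodes needed 300 detected genes and no more than 20% of UMIs from mitochondrial genes, and the highest Scrublet scores were removed at 0.8% per 1000 barcodes. Cells scaled to 10000 UMIs were clustered on 153 marker genes in 25 lists, each scaled to unit variance (scanpy 1.11.5, 20 components, 15 neighbours, Leiden resolution 1.0). Clusters with a pan-neuronal sum of at least 2500 CPM were neurons. That threshold was first 5000 CPM and was lowered after the data, receptor counts per class included, had been seen, because Slc17a6 clusters fell below it. A class name needed 3 markers at 10 CPM and a log2 ratio of 2 over the median cluster (prior 20 CPM), the lists ranked by their mean ratio and the next at least 1 lower. The thresholds of the per-cell marker gate (3 UMIs, 2 markers, a ratio of 4, and 2 times the next list) were also set after the files were seen.

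UMIs were summed by class and library (at least 5 cells in each) and tested two-sided with edgeR 4.0.16 (R 4.3.3), TMM, filterByExpr and the library as a block, with Benjamini-Hochberg adjustment over all genes tested and a threshold of 0.05. The fit has 1 residual degree of freedom and shares spread across genes; SE is the log2 difference over the square root of F. The test recovered known changes in simulated data. Those data gave every gene the same spread and the same change in both libraries, and changed only genes above a minimum expected count. How the test does outside those settings was not tested. Alternatives were DESeq2 1.42.0, RLE factors, no low-count filter, no block, at least 500 genes, no doublet removal, resolution 2.0, the gate, single libraries and, chosen after seeing the data, the 5000 CPM threshold, the other neurons without the remaining large or granule classes, thinning to 10000 UMIs and class sums without the richest cell. Every member was named in every comparison; of each list at most 4 genes of smallest p were named. GENCODE M21 held 99.85% of the 32285 features. Microglia or macrophage-like cells (1 and 34) were too few for a level. A gene that the rule for likeness names is not reported here.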

Additional observations from a re-analysis of the deposited data

How the results depend on the processing

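Of the 18 member differences past the threshold, all had the same sign in each library alone, and of their 172 values under other settings 160 stayed past the threshold with the same sign, 10 lost the call and 2 changed sign. The latter include Htr1d in the noradrenergic-like comparison, at 1.56 (log2 of the pooled ratio, no test) with trigeminal-like and granule-like neurons left out. Members called in the noradrenergic-like comparison numbered 4 with DESeq2 against 7, and in the granule-like comparison 0 with DESeq2, where only 1 member had an adjusted p, 0 with the per-cell marker gate, 3 without the replicate block and 2 at 5000 CPM, against 1. In neurons against other cells 3 of 7 were called at 5000 CPM, beside 4854 of all 12938 genes tested. Htr4 had -0.0081 and Adarb2 -0.86 in that setting. At 5000 CPM, in the trigeminal-like comparison, Htr4 had 0.13 and Itpr1 0.25, and Tmem35a had 0.24 with noradrenergic-like and granule-like neurons left out. At 5000 CPM most cells of the Slc17a6 clusters stood among non-neuronal cells. The part of that move in these values was not tested, and neither were other causes. Among called members, single-library log2 differences (library 1, then 2) lay more than 0.8 apart, in the noradrenergic-like comparison, for Htr2c (-1.31, -2.82), Htr4 (-2.94, -4.91), Htr7 (-3.26, -4.90) and Htr1b (-2.34, -3.55), in the trigeminal-like one for Htr2a (3.06, 1.81), in the granule-like one for Htr2c (-2.49, -1.05), and in neurons for Htr1b (4.17, 2.41), Htr1d (4.06, 2.47), Htr1f (4.94, 3.61), Htr4 (5.18, 3.10), Htr7 (3.68, 2.63) and Htr2a (1.29, 2.16). The trigeminal-like counts of 2 higher and 1 lower held in every setting run. DESeq2 called 1178 of all genes against 3822 with edgeR in the noradrenergic-like, 1591 against 4090 in the trigeminal-like, 378 against 942 in the granule-like, 88 against 315 in the inhibitory-like and 3906 against 6962 in the neuronal comparison. Without the replicate block 1628 genes were called and with the gate 432 in the granule-like comparison, and 478 at resolution 2.0 and 115 with the gate in the inhibitory-like one. The block is the library from which both classes were drawn. The 2 libraries differed in depth and left 1 residual degree of freedom. Htr1a and Htr3a did not pass the low-count filter, and without it neither was called in any of the 5 comparisons.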
